A study of Mus musculus with 42 samples.

Results

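The HoxC genes are the 9 Hox genes of mouse chromosome 15, namely Hoxc4, Hoxc5, Hoxc6, Hoxc8, Hoxc9, Hoxc10, Hoxc11, Hoxc12 and Hoxc13. Each was taken as the probe set whose only gene symbol in the platform annotation is that name. All 9 have 1 probe set, and they are 9 of the 19938 genes with such a symbol. Total RNA of adult mouse reproductive tract was hybridised to 42 Affymetrix whole-transcript arrays, 3 for each of 14 groups. The mice were of CD1/129 background and 3 to 7 months old, and the females were in diestrus. Uterus and vas deferens came from 5 genotypes, which are wild type (WT), Hoxa9,10,11-/- (AKO), Hoxd9,10,11-/- (DKO), Hoxa9,10,11-/-d9,10,11+/- (AKDH) and Hoxa9,10,11+/-d9,10,11-/- (AHDK). Oviduct and caudal epididymis came from WT and AKO mice. The HoxC cluster itself carries no targeted mutation in any of these groups, and the mutations are in every cell of the mouse. Whole pieces of tissue were measured, so fewer cells of a type and less RNA per cell cannot be told apart.

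Hox genes encode homeodomain transcription factors and lie in 4 clusters, HoxA, HoxB, HoxC and HoxD. Within a cluster, genes of low number are used towards the head and genes of high number towards the tail, and genes of the same number in different clusters are paralogues that can stand in for each other. In the reproductive tract the HoxA and HoxD genes of groups 9 to 13 pattern the ducts along their length, Hoxa9 in oviduct, Hoxa10 and Hoxa11 in uterus and Hoxa13 towards the vagina, and the same genes serve the male ducts. Hoxc9, Hoxc10 and Hoxc11 are the HoxC paralogues of the mutated genes. Along the chromosome the cluster runs Hoxc13, Hoxc12, Hotair, Hoxc11, Hoxc10, Mir196a-2, Hoxc9, Hoxc8, Hoxc6, Hoxc5 with Mir615 inside it, and Hoxc4.

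The sequences below belong to the cluster and are taken from RefSeq (mouse build GRCm38.p6). The mature products of its microRNA genes are shown because the Mir196a-2 precursor has a probe set and lies between Hoxc10 and Hoxc9. miR-196a is known for targeting Hox messenger RNAs. Capitals mark the seed, bases 2 to 8, which pairs with targets. The 4 products have 4 different seeds, so none of them share one.
mmu-miR-196a-5p: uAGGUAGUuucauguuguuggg
mmu-miR-196a-2-3p: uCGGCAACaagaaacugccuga
mmu-miR-615-5p: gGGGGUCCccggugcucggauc
mmu-miR-615-3p: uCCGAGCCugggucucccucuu
The first of these lies at chr15:102973365-102973386 on the plus strand. Of the 9 genes, 1 is matched in the RefSeq promoter table, Hoxc4, and its promoter is shown because Hoxc4 marks the low-numbered end of the cluster, which set the oviduct apart from the uterus. It covers chr15:103034145-103034444 on the plus strand, from 250 bases before to 50 bases after the start in that table, and capitals mark TAAT, the core bound by most homeodomains.
Hoxc4 promoter: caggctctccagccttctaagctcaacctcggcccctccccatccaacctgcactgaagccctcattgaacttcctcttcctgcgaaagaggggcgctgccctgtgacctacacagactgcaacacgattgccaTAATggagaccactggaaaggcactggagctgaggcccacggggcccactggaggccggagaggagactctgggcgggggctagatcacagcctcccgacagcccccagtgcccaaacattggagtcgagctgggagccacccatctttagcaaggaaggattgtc
TAAT, searched on both strands, matched 1 time there, and 58.0% of 32851 promoters of this length hold it. TTTAT, a core of high-numbered Hox proteins, and TGATNNAT, a joint site of Hox and Pbx proteins, had 0 matches each, against 40.0% and 8.85% of promoters. A TAAT match can overlap either of the other motifs, which did not arise here, and these counts describe letters only.

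The deposited values are on a log scale, read here as log2, and each gene was centred so that its median over the 21 female arrays is 0 and its median over the 21 male arrays is 0. Values are therefore relative to the middle array of the same sex. Levels were not compared between genes or between the sexes, signal over background is not known, and the number of arrays limits the precision. A gene was called where limma gave a Benjamini-Hochberg adjusted p below 0.05 over all 19938 genes, and differences below are given in log2 units with their SE. Shares of all genes called use that threshold. Counts at an unadjusted p below 0.05 use a looser one, for which an all-gene count is given in oviduct only. Hoxa11, a gene mutated in AKO and AKDH, checked the labels. In uterus it lay between 1.23 and 2.75 in WT, between -1.59 and 0.67 in AKO and between -1.57 and 0 in AKDH, and in vas deferens WT lay above both mutants as well. Its AKO difference in uterus, -2.56, was nevertheless not called (limma adjusted p = 0.112). In oviduct Hoxa11 overlapped, from -1.99 to -0.77 in WT and from -2.10 to -1.69 in AKO, and so did Hoxa9 and Hoxa10. The other probe sets checked the labels less well. In uterus the Hoxd genes mutated in DKO did not set DKO apart (Hoxd9 -0.12, Hoxd10 0.18 and Hoxd11 -0.17 against WT, all overlapping), and of these genes Hoxd11 alone lay below WT in AHDK uterus (-0.84, limma adjusted p = 0.183). In vas deferens Hoxd9 fell in DKO (-0.55, limma adjusted p = 0.00581) and AHDK (-0.49, limma adjusted p = 0.00885), while Hoxa9 in AKO lay above all WT arrays (0.35, limma adjusted p = 0.309). Whether these probe sets lie in the altered part of each gene is not known here. The DKO label in uterus and the AKO label in oviduct therefore have no check from them. Several libraries stood apart. The library labelled WT oviduct replicate 2 had Xist at -5.92 and the Y-linked Eif2s3y at 2.09, and its ovary markers averaged 1.97. On the other female arrays Xist lay from -0.42 to 0.72 and Eif2s3y from -0.04 to 0.06. Both values of this library go against its female label, under which it was kept. Motile cilia markers, which define oviduct against uterus, averaged at least 3.25 on every oviduct array and at most 0.04 in WT uterus. AKDH vas deferens replicate 3 was high for sperm (0.97) and cilia markers (0.87), and AKO epididymis replicate 1 had proximal epididymis markers at 4.93. Sperm markers also reached 1.02 in AHDK and 0.66 in DKO vas deferens. AKDH vas deferens replicate 2 had skeletal muscle markers at 2.05, beside 0.90 to 1.64 in AKO and up to 1.41 in WT vas deferens. Uterus AKDH replicate 1 and oviduct replicates 3 differed in stroma and smooth muscle markers, as given with the results they touch.

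In some uterus and vas deferens mutants HoxC genes were called higher than in WT, and none was called lower in any mutant tissue. Over the 10 mutant against WT comparisons there were 90 tests of a HoxC gene, of which 12 were called higher, 0 lower and 78 not called. The share of all genes called ran from 0% to 9.57% higher and from 0% to 14.8% lower by comparison, and is given with each count below. With small RNA genes (uterus) or adipocyte markers (vas deferens) as a covariate limma called 0 HoxC genes. These fits can hardly separate score from genotype. WT uterus lay above every mutant array for small RNA genes, and AKO, AKDH and AHDK vas deferens lay above WT for adipocyte markers. Hoxc10 was called in 5 comparisons, Hoxc8 in 3, and Hoxc4, Hoxc5, Hoxc6 and Hoxc9 in 1 each. Hoxc11, Hoxc12 and Hoxc13 were called in none of the 10. All 12 calls were in uterus or vas deferens, and comparisons within a tissue share their 3 WT arrays. The plots of values by array show each gene in every group.

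**Figure D1:**
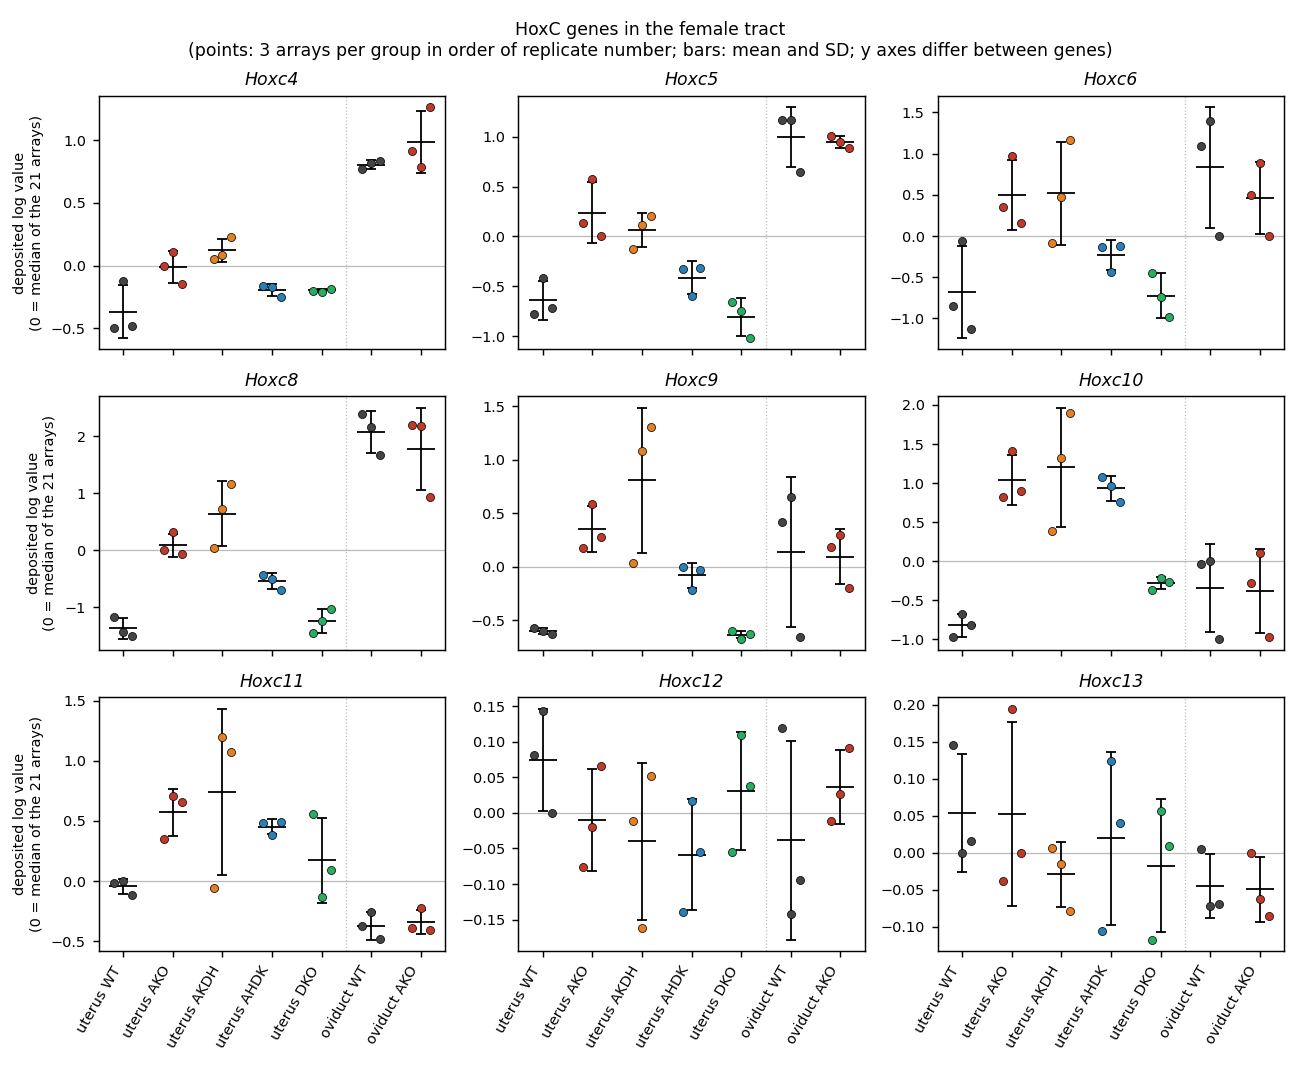
Deposited log values of the 9 HoxC genes on the 21 female arrays, with groups on the x axis and the log value on the y axis, whose range differs between genes. Points are single arrays and bars the mean and SD of 3. Hoxc8 lies between 1.68 and 2.40 in WT oviduct and between -1.52 and -1.17 in WT uterus.

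Hoxc10, the HoxC paralogue of the mutated Hoxa10 and Hoxd10, shared with Hoxc8 the widest range of group means among HoxC genes in uterus (2.02 each), and its SD over the 15 uterus arrays was at percentile 98.8 of all genes. In WT uterus its values were -0.97, -0.68 and -0.81. In AKO they were 0.82, 1.41 and 0.90, in AKDH 0.39, 1.32 and 1.89, in AHDK 1.07, 0.97 and 0.76, and in DKO -0.36, -0.22 and -0.27. Every array of the 4 mutants lay above every WT array, and those of AKO, AKDH and AHDK also lay above those of DKO. Hoxc10 rose by 1.86 in AKO (SE 0.29, limma adjusted p = 0.0366), by 2.02 in AKDH (SE 0.29, limma adjusted p = 0.00418) and by 1.75 in AHDK (SE 0.29, limma adjusted p = 0.0119). In DKO the difference was 0.54 and was not called (limma adjusted p = 0.404).

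Hoxc8, a mid-cluster gene best known from the thoracic skeleton, had a graded order in uterus. In WT uterus its values were -1.17, -1.44 and -1.52. They were 0, 0.32 and -0.06 in AKO, 0.04, 0.73 and 1.17 in AKDH, -0.43, -0.50 and -0.70 in AHDK, and -1.45, -1.25 and -1.04 in DKO. AKO, AKDH and AHDK did not overlap WT, whereas DKO did. Hoxc8 rose by 1.46 in AKO (SE 0.23, limma adjusted p = 0.0419) and by 2.02 in AKDH (SE 0.23, limma adjusted p = 0.00158). The AHDK difference of 0.83 was not called (limma adjusted p = 0.0678).

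Hoxc9, the paralogue of Hoxa9 and Hoxd9, was -0.57, -0.60 and -0.63 in WT uterus and 0.03, 1.08 and 1.30 in AKDH. It rose in AKDH by 1.40 (SE 0.24, limma adjusted p = 0.00878), with no overlap. In AKO it was 0.18, 0.59 and 0.28, all above WT, with a difference of 0.95 that was not called (limma adjusted p = 0.177). Hoxc11, the paralogue of Hoxa11 and Hoxd11, was not called in any uterus mutant. Its WT values were -0.02, 0 and -0.12, its AKO values 0.35, 0.71 and 0.66 and its AKDH values -0.05, 1.20 and 1.08. AKO lay above WT throughout (difference 0.62, limma adjusted p = 0.501), while AKDH replicate 1 lay among the WT arrays (difference 0.79, limma adjusted p = 0.105).

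Of the low-numbered genes Hoxc4 and Hoxc5 rose in AKDH uterus. Hoxc4 was -0.50, -0.13 and -0.48 in WT and 0.05, 0.08 and 0.23 in AKDH, with no overlap, and rose by 0.49 (SE 0.10, limma adjusted p = 0.0156). Hoxc5 was -0.78, -0.42 and -0.72 in WT and -0.13, 0.12 and 0.20 in AKDH, again apart, and rose by 0.70 (SE 0.16, limma adjusted p = 0.027). In AKO Hoxc5 was 0.13, 0.58 and 0, with a difference of 0.88 that was not called (limma adjusted p = 0.0615). Hoxc6 spread widely in WT, at -0.85, -0.06 and -1.13, and its AKDH values of -0.08, 0.47 and 1.17 overlapped them. Its differences of 1.17 in AKO and 1.20 in AKDH were not called (limma adjusted p = 0.22 and 0.0538). Hoxc12 and Hoxc13, known for hair follicle and nail, kept within 0.31 log2 units over the 15 uterus arrays. Their largest difference from WT in uterus was -0.13, for Hoxc12 in AHDK (limma adjusted p = 0.321).

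Counted by genotype, 2 of 9 HoxC genes were called higher in uterus AKO and 0 lower, against 0.0401% and 0.0502% of all genes, and 6 of 9 had AKO arrays all above WT, against 7.91% of all genes. In AKDH uterus 5 of 9 were called higher and 0 lower, against 3.93% and 2.65%, and 5 of 9 lay apart above WT, against 12.1%. In AHDK uterus 1 of 9 was called higher and 0 lower, against 2.3% and 1.23%, and 4 of 9 lay apart above WT, against 14.2%. In DKO uterus limma called 0 of 9 higher and 0 lower, against 0.622% and 0.351%, with 0 at an unadjusted p below 0.05, and 1 of 9 lay apart above WT, against 11.6%. The median difference over the 9 genes was 0.88 in AKO, 0.79 in AKDH, 0.45 in AHDK and -0.03 in DKO, beside medians over all genes between -0.02 and 0.01.

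**Figure D2:**
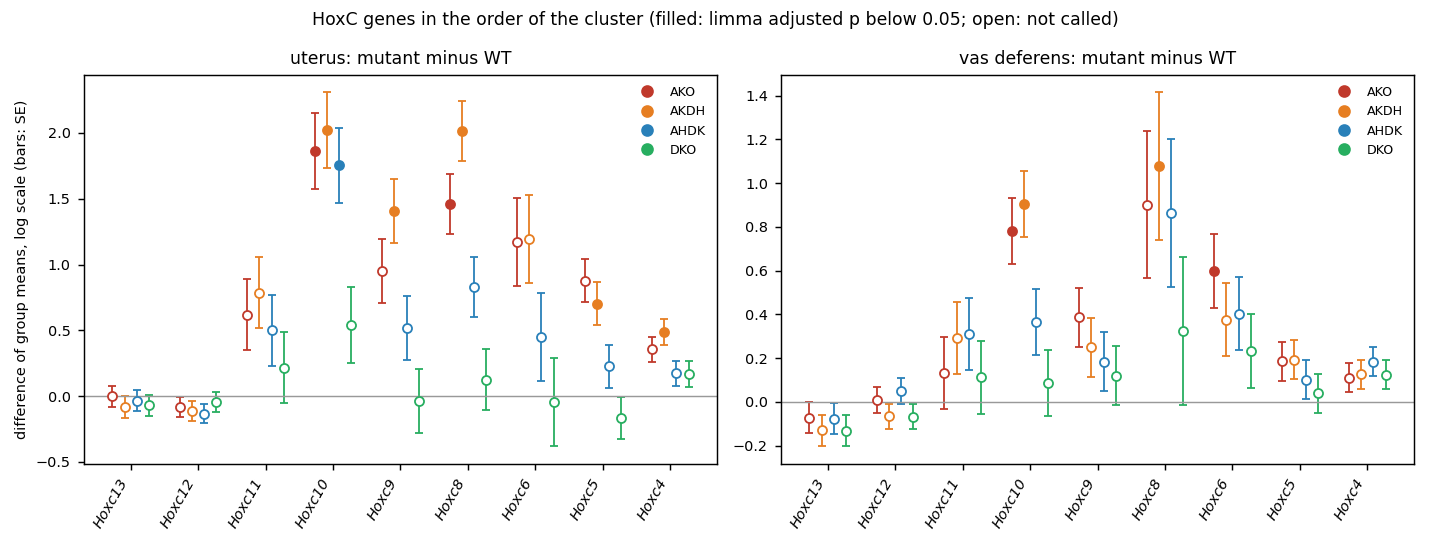
Mutant minus WT differences of the 9 HoxC genes in the order of the cluster, in uterus (left) and vas deferens (right). Points are differences of group means of 3 arrays on the log scale, bars the SE from limma, and filled points are called. In uterus the called points are those of Hoxc10, Hoxc9, Hoxc8, Hoxc5 and Hoxc4, with Hoxc10 at 1.86, 2.02 and 1.75.

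The uterus calls moved with the arrays in the fit. Without AKDH replicate 1 the count of HoxC calls against WT was 14 in place of 8, without WT replicate 3 it was 4 and without AHDK replicate 1 it was 5. Hoxc10 and Hoxc8 in AKO each kept their call in 4 of 15 fits that left out an array, with differences from 1.68 to 1.98 and from 1.34 to 1.56, and in 3 of 7 other settings. In AKDH, Hoxc8, Hoxc9 and Hoxc10 were called in 15 of 15, Hoxc4 in 13 and Hoxc5 in 11. Hoxc4 was not called without WT replicate 3 or AKDH replicate 3, nor Hoxc5 without WT replicate 1 or 3 or AKDH replicate 2 or 3. AKDH replicate 1 was the lowest of its group for 7 of the 9 genes, and there smooth muscle and stroma markers averaged -0.74 and -0.54, against 0.36 and 0.74, and 0.19 and 0.42, on the other AKDH arrays. Within genotype groups Hoxc10 followed the smooth muscle markers (r = 0.889 over 15 uterus arrays that share tissue and preparation), and Hoxc8 the stroma markers (r = 0.885). With the urothelium markers r was 0.577 for Hoxc10 and 0.557 for Hoxc8 over all 15 arrays, and -0.832 and -0.639 within groups. The part of tissue makeup in these results was not tested.

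Averages of several marker lists also differed between the uterus groups. Shares of all genes called higher and lower were 0.0401% and 0.0502% in AKO and 3.93% and 2.65% in AKDH. They were 2.3% and 1.23% in AHDK and 0.622% and 0.351% in DKO. The lists below are not independent, as mesothelium shares Upk1b and Krt7 with urothelium and Krt19 with luminal epithelium. Small RNA genes, 22 of them measured, averaged 0.95, 0.54 and 0.61 in WT, between -0.01 and 0.34 in AKO, between -0.55 and -0.26 in AKDH, between -0.31 and 0.22 in AHDK and between -0.12 and 0.09 in DKO. Of these 22 genes 0 fell in AKO, 17 in AKDH, 8 in AHDK and 4 in DKO. With that average as a covariate limma called 0 HoxC genes in uterus, with Hoxc10 at 1.56 in AKO (adjusted p = 0.292), 1.37 in AKDH (adjusted p = 0.735) and 1.32 in AHDK (adjusted p = 0.984). Hoxc8 stayed at 1.43 in AKO and 1.95 in AKDH (limma adjusted p = 0.253 and 0.56). All WT arrays lay above all mutant arrays for this average, so the fit can hardly separate it from genotype. Mesothelium markers, 11 measured, averaged -0.25, -1.27 and -1.14 in WT, between -0.09 and 0.21 in AKO, between -0.34 and 0.41 in AKDH, between -0.47 and -0.12 in AHDK and between -0.91 and -0.41 in DKO. All groups but AKO overlapped WT, and 6 of the 11 rose in AKDH and 0 in AKO, AHDK or DKO, with 10, 5 and 1 at an unadjusted p below 0.05 by limma. Urothelium markers, 10 measured, averaged -0.52 to -0.04 in WT, 0.11 to 0.23 in AKO, -0.01 to 0.96 in AKDH, 0.38 to 0.46 in AHDK and -0.27 to -0.18 in DKO. AKO, AKDH and AHDK lay above all WT arrays and DKO overlapped them, as for Hoxc8, and 1 of the 10 rose in each of AKO, AKDH and AHDK. Luminal epithelium markers, 15 measured, averaged -0.28 to -0.18 in WT, 0.03 to 0.11 in AKO, -0.14 to 0.49 in AKDH, 0.15 to 0.23 in AHDK and -0.58 to -0.14 in DKO, with 1 of the 15 higher in AKDH, 1 in AHDK and 0 in AKO (4 at an unadjusted p below 0.05 by limma). The part of these lists in the HoxC differences was not tested.

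Against each other the mutants differed at Hoxc5 and Hoxc8. Hoxc5 was -0.65, -0.75 and -1.02 in DKO uterus and lay below all AKO arrays, by 1.04 (SE 0.16, limma adjusted p = 0.0282 for the difference). Hoxc8 lay below all AKO arrays by 1.33 (SE 0.23, limma adjusted p = 0.0469). These are 2 of 9 HoxC genes called lower in DKO than in AKO, against 0.0752% of all genes, and 6 of 9 lay apart below AKO, against 8.65%. Neither was called without AKO replicate 1 or 2, DKO replicate 2 or 3, or AHDK replicate 1 or 3. A single call was left without DKO replicate 1, AKDH replicate 2 or AHDK replicate 2, and 4 and 3 calls were made without AKDH replicates 1 and 3. Removing a Hoxd allele from AKO (AKDH minus AKO) gave 0 of 9 calls by limma, against 0% of all genes, with 1 at an unadjusted p below 0.05, Hoxc8 at 0.56 (95% interval 0.06 to 1.06). Removing a Hoxa allele from DKO (AHDK minus DKO) gave 0 of 9 calls by limma, against 0.0251% of all genes. In that comparison 4 of 9 had an unadjusted p below 0.05, with no all-gene count given at that looser threshold. There Hoxc10 differed by 1.21 (95% interval 0.59 to 1.84, limma adjusted p = 0.336), and 5 of 9 genes lay apart above DKO, against 5.61% of all genes.

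The Mir196a-2 precursor, between Hoxc10 and Hoxc9, was -0.07, 0.05 and 0 in WT uterus, 0.40, 0.76 and 0.18 in AKO and 0.12, 0.63 and 0.54 in AKDH. Both mutants lay above WT, but the differences of 0.45 and 0.43 were not called (limma adjusted p = 0.267 and 0.0903). Over the 15 uterus arrays it followed Hoxc5 with r = 0.932 and Hoxc9 with r = 0.887, and within genotype groups with r = 0.765 and 0.749. In vas deferens it spanned 0.23 log2 units over 15 arrays. The Mir615 precursor, inside Hoxc5, followed Hoxc5 in uterus with r = 0.432.

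HoxC genes varied together within uterus. Hoxc8 and Hoxc9 gave r = 0.968 over 15 arrays and 0.847 within genotype groups, Hoxc5 and Hoxc6 gave 0.941 and 0.871, and Hoxc9 and Hoxc10 gave 0.888 and 0.913. Hoxc12 and Hoxc13 were not part of this, with r between -0.511 and 0.018 to the other 7 genes. By the highest correlation with Hoxc10 in uterus, the genes outside the cluster were Slit2, a secreted guidance ligand (r = 0.923), Hoxa6 (0.922), Hoxa3 (0.910), Pkp2, a desmosome plaque protein (0.897), and Hoxa5 (0.896). For Hoxc8 they were Lmcd1 (0.958), Mlip (0.941), Rtn1 (0.916), the Wnt ligand Wnt2b (0.911) and 1810010H24Rik (0.908). Within genotype groups Hoxa6, Hoxa3 and Hoxa5 kept r of 0.898, 0.915 and 0.855 with Hoxc10, and Lmcd1 kept 0.941 with Hoxc8, while Rtn1 had 0.187 and Wnt2b 0.374. The AKDH arrays weigh most in the within-group r of Hoxc8, Hoxc9 and Hoxc10. Their SDs in AKDH were 0.57, 0.68 and 0.76, against at most 0.21, 0.21 and 0.32 in other uterus groups. Hoxc5 spread most in AKO (SD 0.30), and Hoxc6 had SDs of 0.63 in AKDH and 0.56 in WT. Values of r without the AKDH arrays are not given.

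Other Hox genes were set beside the HoxC genes. Of 7 HoxA genes outside the mutated block, 0 were called in AKO uterus, where 5 of 7 lay apart above WT, against 7.91% of all genes. These 5, named after their values were seen, were Hoxa7 (0.70), Hoxa6 (0.85), Hoxa5 (0.71), Hoxa3 (0.64) and Hoxa2 (0.29). In AKDH uterus, where 3.93% of all genes rose and 2.65% fell, 2 of 7 rose, Hoxa7 by 0.84 (limma adjusted p = 0.0205) and Hoxa6 by 1.06 (limma adjusted p = 0.0418). Of 6 HoxD genes outside the block 2 fell in AKDH uterus, Hoxd3 (-0.86, limma adjusted p = 0.00703) and Hoxd4 (-1.09, limma adjusted p = 0.0298), and 0 rose. Of 9 HoxB genes limma called 0 in any uterus mutant, with 0 to 4 of them at an unadjusted p below 0.05. Of 17 genes in and around the HoxC locus, the microRNA precursors among them, it called 0 likewise, with 2 to 6 at an unadjusted p below 0.05. Of 18 chromatin regulators of Hox genes 4 fell and 0 rose in AKDH uterus, led by the Polycomb subunit Pcgf2 (-0.47, limma adjusted p = 0.0107) and the histone demethylase Kdm6b (-0.54, limma adjusted p = 0.017). In AHDK uterus, where 1.23% of all genes fell, 2 of 18 fell, the methyltransferase Kmt2a, which maintains Hox transcription (-0.80, limma adjusted p = 0.0425), and Pcgf2 (-0.36, limma adjusted p = 0.0453). Of 8 Hox cofactors 1 fell in AKDH uterus, Meis3 (-0.52, limma adjusted p = 0.0354). In AKO uterus limma called 0 of the chromatin and HoxA genes, with 2 of 18 and 4 of 7 at an unadjusted p below 0.05.

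Within the female tract, HoxC genes of low number were higher in oviduct than in uterus. In WT oviduct Hoxc8 was 2.40, 2.17 and 1.68, against -1.17 to -1.52 in uterus, with no overlap and a difference of 3.46 (SE 0.31, limma adjusted p = 2.93e-07). Hoxc4 was 0.77, 0.81 and 0.83 in WT oviduct, and Hoxc5 was 1.17, 1.17 and 0.65. Both lay above all uterus WT arrays, by 1.17 (SE 0.11, limma adjusted p = 6.44e-07) and 1.64 (SE 0.17, limma adjusted p = 1.44e-06). Hoxc6 was 1.10, 1.39 and 0.01 and was higher by 1.51 (SE 0.38, limma adjusted p = 0.00837). The Hoxc6 call held in 6 of 6 fits without an array (limma adjusted p up to 0.0437) and in 6 of 7 other settings (up to 0.087). The high-numbered genes were not called, with Hoxc9 at 0.74 (limma adjusted p = 0.0888), Hoxc10 at 0.48 (limma adjusted p = 0.336) and Hoxc11 at -0.33 (limma adjusted p = 0.353). Hoxc11 was the 1 gene of 9 with all oviduct arrays below uterus, against 20.5% of all genes. That made 4 of 9 genes called higher, against 14.5% of all genes, and 0 lower, against 9.39%.

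Without the library labelled WT oviduct replicate 2 the same 4 genes were called, Hoxc8 at 3.41, Hoxc5 at 1.55, Hoxc6 at 1.23 and Hoxc4 at 1.17. In both genotypes oviduct replicate 3 was the lowest array for Hoxc6, Hoxc8, Hoxc9 and Hoxc10. Its stroma markers averaged -1.35 in WT and -1.22 in AKO, against -0.42 to -0.19 on the other oviduct arrays, and their part was not tested. Without WT oviduct replicate 3 Hoxc9 was also called, at 1.13 (limma adjusted p = 0.00746). The 6 mutated genes of the HoxA and HoxD clusters went the other way, all lower in WT oviduct than in WT uterus, from -3.39 for Hoxa11 to -1.50 for Hoxa9.

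In AKO mice the tissue difference was split across the cluster. Oviduct AKO values of Hoxc8 were 2.20, 2.19 and 0.94, still above all AKO uterus arrays, by 1.69 (SE 0.31, limma adjusted p = 0.000947). Hoxc4 and Hoxc5 were higher in oviduct by 1.00 (limma adjusted p = 4.81e-06) and 0.71 (limma adjusted p = 0.00679). Hoxc10 was -0.28, 0.10 and -0.97 in AKO oviduct and lay below all AKO uterus arrays, by 1.43 (SE 0.34, limma adjusted p = 0.00719). Hoxc11 lay below by 0.91 (SE 0.24, limma adjusted p = 0.0139), and the Mir196a-2 precursor by 0.57 (limma adjusted p = 0.00651). So 3 of 9 genes were called higher in AKO oviduct, against 10.7% of all genes, and 2 lower, against 7.09%. After quantile normalisation of the arrays Hoxc5 (0.26, limma adjusted p = 0.488) and Hoxc8 (0.98, limma adjusted p = 0.0587) were no longer called.

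**Figure D3:**
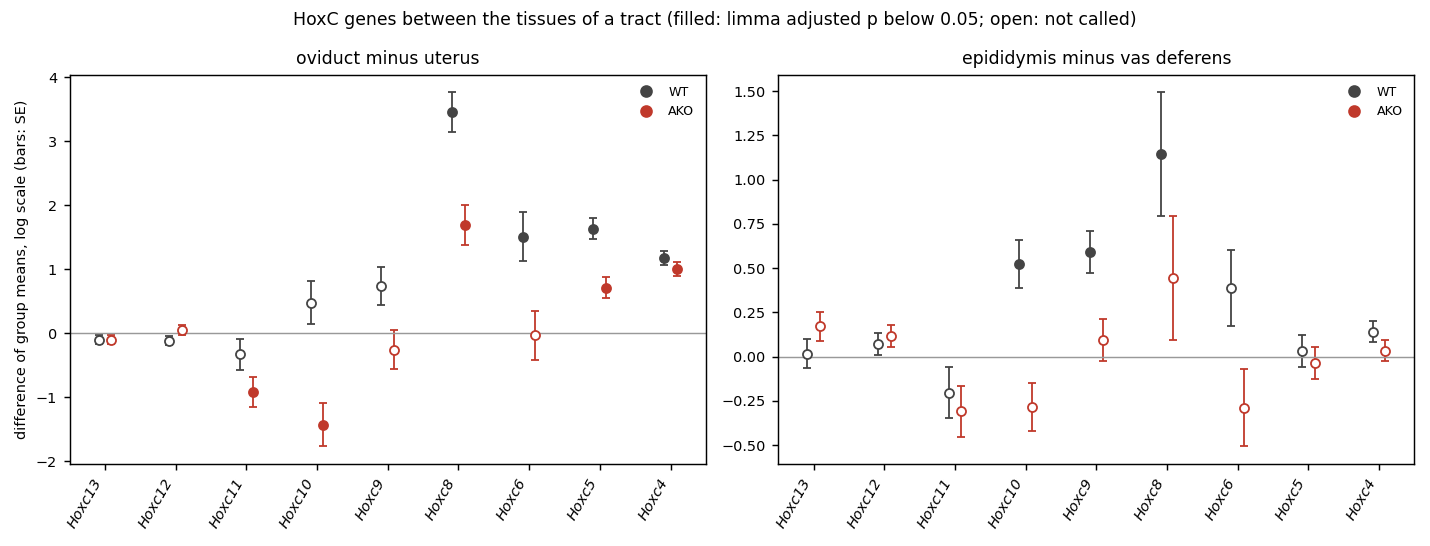
Differences between the tissues of a tract for the 9 HoxC genes in the order of the cluster, in WT (grey) and AKO (red) mice. Points are differences of group means of 3 arrays on the log scale, bars the SE from limma, and filled points are called. In the female tract Hoxc8 is at 3.46 in WT and 1.69 in AKO, and Hoxc10 is at 0.48 in WT and -1.43 in AKO.

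Within oviduct no HoxC gene was called between AKO and WT. Of the 9 genes limma called 0 and 0 had an unadjusted p below 0.05, while 0 of all 19938 genes (0%) were called and 609 had an unadjusted p below 0.05. Hoxc10 differed by -0.04 (SE 0.37) and Hoxc8 by -0.31 (SE 0.39, 95% interval -1.26 to 0.64). The AKO change in oviduct minus that in uterus was -1.90 for Hoxc10, -1.77 for Hoxc8 and -0.93 for Hoxc5. None of these was called (limma adjusted p = 0.618 for each), and 0 of all genes (0%) were called. At the looser unadjusted p below 0.05 by limma 5 of the 9 genes passed, with no all-gene count given there. Over the 7 female groups the order of Hoxc8 was WT oviduct (mean 2.08 ± 0.37, SD, n = 3), AKO oviduct (1.78 ± 0.72), AKDH (0.64 ± 0.57), AKO (0.09 ± 0.20), AHDK (-0.54 ± 0.14), DKO (-1.25 ± 0.21) and WT uterus (-1.37 ± 0.18). Neighbours overlapped in that order except AKO with AHDK and AHDK with DKO. For Hoxc10 the order was AKDH (1.20 ± 0.76), AKO (1.04 ± 0.32), AHDK (0.93 ± 0.16), DKO (-0.28 ± 0.07), WT oviduct (-0.34 ± 0.56), AKO oviduct (-0.38 ± 0.54) and WT uterus (-0.82 ± 0.15). Only AHDK and DKO were neighbours without overlap there.

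In vas deferens Hoxc10 rose in AKO and AKDH, Hoxc8 in AKDH and Hoxc6 in AKO. Hoxc10 was -0.63, -0.50 and -0.49 in WT. It was 0.05, 0.03 and 0.65 in AKO, 0.46, 0.44 and 0.20 in AKDH, -0.30, 0.06 and -0.27 in AHDK, and -0.44, -0.42 and -0.49 in DKO. AKO, AKDH and AHDK lay above all WT arrays, and DKO overlapped WT, with 1 of its 3 arrays within the WT range. Hoxc10 rose by 0.78 in AKO (SE 0.15, limma adjusted p = 0.00705) and by 0.90 in AKDH (SE 0.15, limma adjusted p = 0.00141), and was not called in AHDK (0.37, limma adjusted p = 0.225). It was lower in DKO than in AKO by 0.69 (SE 0.15, limma adjusted p = 0.00829), the only HoxC gene called between vas deferens mutants, where 6.37% of all genes were called lower in DKO. Without AKO replicate 2 Hoxc9 was called as well. AKDH minus AKO and AHDK minus DKO gave 0 of 9 calls by limma, against 1.29% and 0.366% of all genes, and 0 at an unadjusted p below 0.05.

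Hoxc8 in vas deferens was -1.17, -0.79 and -0.81 in WT and 0.33, 0 and 0.13 in AKDH, apart by 1.08 (SE 0.34, limma adjusted p = 0.0367). Without AKDH replicate 3, the library high for cilia markers, the difference was 1.09 and no longer called (limma adjusted p = 0.0638). AKO values of -0.20, -0.75 and 0.89 all lay above WT but spread widely, and the difference of 0.90 was not called (limma adjusted p = 0.124). Hoxc6 was -0.37, -0.32 and -0.21 in WT and 0.29, 0 and 0.61 in AKO, and rose in AKO by 0.60 (SE 0.17, limma adjusted p = 0.0442). It was not called in AKDH (0.38, limma adjusted p = 0.123). Hoxc9, at -0.40, -0.17 and -0.25 in WT and 0.08, -0.20 and 0.46 in AKO, overlapped (difference 0.39, limma adjusted p = 0.0982). Hoxc4, Hoxc5 and Hoxc11 were not called in any vas deferens mutant, and no array of Hoxc4, Hoxc12 or Hoxc13 there left the range from -0.21 to 0.16.

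In vas deferens AKO 2 of 9 HoxC genes were called higher and 0 lower, against 4.91% and 4.44% of all genes, and 3 of 9 lay apart above WT, against 14.2%. In AKDH 2 of 9 were called higher and 0 lower, against 9.57% and 14.8%, and 6 of 9 lay apart above WT, against 13.8%. In AHDK limma called 0 of 9 higher and 0 lower, against 2.08% and 2.07%, and 5 of 9 lay apart above WT, against 9.33%. There 4 had an unadjusted p below 0.05, with no all-gene count given at that looser threshold. In DKO limma called 0 of 9 higher and 0 lower, against 3.85% and 2.02%, with 0 at an unadjusted p below 0.05, and 2 of 9 lay apart above WT, against 18.8%. Leaving out WT replicate 1, 2 or 3, or AKDH replicate 2, left 2 of these 4 calls in place of 4, and leaving out AKO replicate 2 gave 6. Hoxc10 was called in both AKO and AKDH in 15 of 15 such fits, Hoxc8 in AKDH in 9 and Hoxc6 in AKO in 6.

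**Figure D4:**
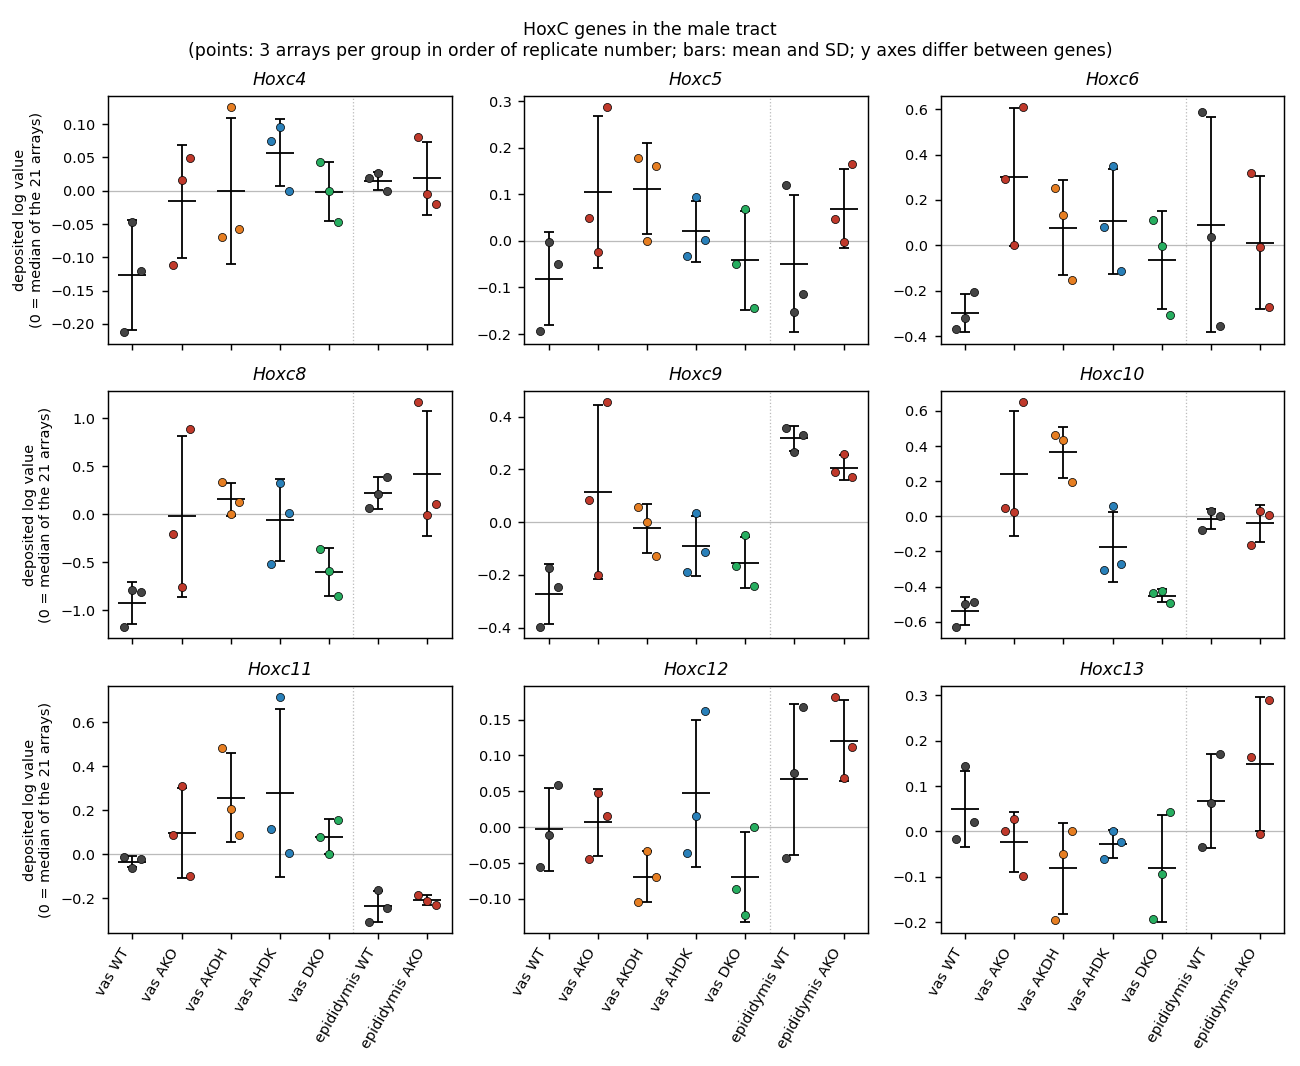
Deposited log values of the 9 HoxC genes on the 21 male arrays, with groups on the x axis and the log value on the y axis, whose range differs between genes. Points are single arrays and bars the mean and SD of 3. Hoxc10 lies between -0.63 and -0.49 in WT vas deferens, between 0.03 and 0.65 in AKO and between 0.20 and 0.46 in AKDH.

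Fat markers moved with the HoxC genes in vas deferens. The 19 adipocyte markers measured averaged -0.77, -0.44 and 0 in WT, -0.07, -0.36 and -0.17 in DKO, 0.50, 0.18 and 0.98 in AKO, 1.15, 0.88 and 1.00 in AKDH, and 1.02, 1.35 and 0.70 in AHDK. Of the 19, 11 rose in AKO, 15 in AKDH, 14 in AHDK and 0 in DKO, against 4.91%, 9.57%, 2.08% and 3.85% of all genes, and in AHDK 0 HoxC genes were called. In DKO 0 of the 19 had an unadjusted p below 0.05 by limma. Over the 15 arrays, which share tissue and preparation, they gave r = 0.834 with Hoxc8, 0.778 with Hoxc10 and 0.690 with Hoxc6, and within genotype groups r = 0.716, 0.720 and 0.726. AKO replicate 3 was the highest AKO array for the markers and for Hoxc8, Hoxc10 and Hoxc6. AKO, AKDH and AHDK lay above all WT arrays for the marker average, so a fit with it can hardly separate it from genotype. With the marker average as a covariate limma called 0 HoxC genes in vas deferens. Hoxc10 was then 0.33 in AKO (adjusted p = 0.457) and 0.24 in AKDH (adjusted p = 0.673), Hoxc6 0.09 in AKO, and Hoxc8 -0.43 in AKDH (adjusted p = 0.748). AHDK had a higher marker mean than AKO (1.02 against 0.55). Means of Hoxc10 (-0.17 against 0.24) and Hoxc6 (0.11 against 0.30) were lower in AHDK, while those of Hoxc8 were close (-0.06 against -0.02). For each of these genes all AHDK arrays still lay above WT. The differences between AHDK and AKO were not tested. Smooth muscle markers, 18 measured, went the other way in AKO and AKDH, with 3 lower in AKO and 11 lower in AKDH, against 4.44% and 14.8% of all genes. In AHDK their average ran from -0.07 to 0.85 and overlapped that in WT (0.32 to 0.79).

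**Figure D5:**
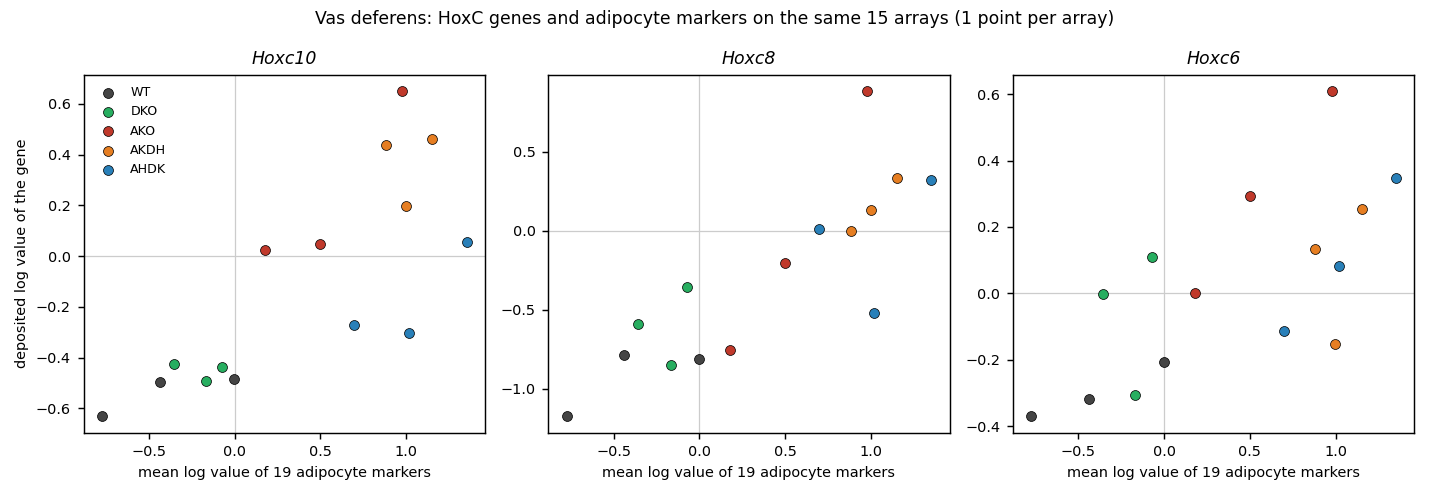
Log values of Hoxc10, Hoxc8 and Hoxc6 (y axis) against the mean log value of 19 adipocyte markers (x axis) on the 15 vas deferens arrays, 1 point per array, coloured by genotype. WT and DKO lie at low marker values (at most 0), and Hoxc10 in AHDK lies between -0.30 and 0.06 at marker values from 0.70 to 1.35.

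The genes most like Hoxc8 over the vas deferens arrays were Palmd (r = 0.920), Lrrn4cl (0.909), Acp5 (0.902), Pnpla3 (0.888) and the transferrin gene Trf (0.887). Pnpla3 encodes a lipid droplet protein. For Hoxc10 they were Klhdc7a (0.912), the endothelial adhesion molecule Esam (0.905), the ribosomal protein gene Rplp0 (0.905), Ddit4l (0.904) and Orm1 (0.902). None of these genes was among the most alike in uterus. HoxC genes again varied together, Hoxc6 and Hoxc9 with r = 0.886 and Hoxc8 and Hoxc9 with r = 0.873, and Hoxc11 stood outside with r of at most 0.354.

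Counts of other lists in vas deferens are to be read against 4.91% of all genes higher and 4.44% lower in AKO, and 9.57% higher and 14.8% lower in AKDH. Among other Hox genes Hoxb4 rose in AKO (0.67, limma adjusted p = 0.027) and AKDH (0.59, limma adjusted p = 0.0246), 1 of 9 HoxB genes in each. Hoxd4 rose in AKO (0.76, limma adjusted p = 0.0425) and AKDH (0.73, limma adjusted p = 0.0252). Hoxa13, which acts at the tail end of the tract, fell in AKO (-1.01, limma adjusted p = 0.00752) and AKDH (-0.87, limma adjusted p = 0.00795). Hoxd9, itself intact in AKO, rose there by 0.45 (limma adjusted p = 0.0053) while its paralogue Hoxc9 was not called. Of the Hox cofactors Pknox2 rose in AKO (0.91, limma adjusted p = 0.00153) and AKDH (0.99, limma adjusted p = 0.000382). Of 17 genes in and around the HoxC locus, Cbx5, a heterochromatin protein gene beside the cluster, rose in AKO (0.43), AKDH (0.61) and AHDK (0.44), each called by limma. In AKDH, with shares of the 17 near those of all genes, a further 1 rose, the coatomer subunit Copz1 (0.29), and 2 fell, the immune receptor Gpr84 (-0.33) and the phosphodiesterase Pde1b (-0.25). Of 18 chromatin regulators 2 rose in AKO, the Polycomb subunits Suz12 (0.36) and Cbx2 (0.21). In AKDH counts were again near those shares, as 3 of 18 rose, among them Suz12 (0.36) and Men1 (0.32), and 2 fell, among them the Polycomb subunit Rnf2 (-0.57).

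Between the male tissues, 3 of 9 HoxC genes were higher in WT epididymis than in WT vas deferens, against 11.2% of all genes called higher, and 0 were lower, against 16.8%. Hoxc9 was 0.36, 0.27 and 0.33 in WT epididymis and lay above vas deferens by 0.59 (SE 0.12, limma adjusted p = 0.00115). Hoxc10 was -0.08, 0.03 and 0 and lay above by 0.52 (SE 0.13, limma adjusted p = 0.00758), and Hoxc8, at 0.06, 0.21 and 0.39, by 1.14 (SE 0.35, limma adjusted p = 0.0208). The Hoxc8 call held in 3 of 6 fits without an array. In AKO mice limma called 0 of 9 between these tissues, where 15.5% of all genes were called, with 1 at an unadjusted p below 0.05, and Hoxc10 differed by -0.28, epididymis minus vas deferens (limma adjusted p = 0.173). Fitted with the WT and AKO arrays alone Hoxc11 was called there (-0.31, limma adjusted p = 0.0387).

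Within epididymis AKO against WT gave 0 of 9 calls by limma, against 0.782% of all genes called, with 0 at an unadjusted p below 0.05. Hoxc10 in AKO was -0.16, 0.03 and 0.01, a difference of -0.02 (SE 0.08), and without AKO replicate 1 there were again 0 calls. Hoxc9 in AKO was 0.19, 0.26 and 0.17, all below WT, with a difference of -0.11 (SE 0.06, limma adjusted p = 0.444), and 9.02% of all genes lay apart below WT. Sperm markers, 14 measured, averaged 1.86 to 3.23 in WT epididymis and -0.53 to -0.16 in AKO, and their part in these values was not tested. The AKO change in epididymis minus that in vas deferens was -0.80 for Hoxc10 (SE 0.19, limma adjusted p = 0.0179), 1 of 9 genes, against 3.25% of all genes called lower, and -0.74 without AKO epididymis replicate 1 (limma adjusted p = 0.0423). It was -0.50 for Hoxc9 (limma adjusted p = 0.088) and -0.70 for Hoxc8 (limma adjusted p = 0.478). Without AKO vas deferens replicate 2 the Hoxc9 value was -0.65 and was called (limma adjusted p = 0.0122). Over the 7 male groups Hoxc10 ran from AKDH (0.36 ± 0.15, SD, n = 3) and AKO vas deferens (0.24 ± 0.35) through WT and AKO epididymis (-0.02 ± 0.06 and -0.04 ± 0.11) to AHDK (-0.17 ± 0.20), DKO (-0.45 ± 0.04) and WT vas deferens (-0.54 ± 0.08). AKDH overlapped AKO, AKO vas deferens overlapped WT epididymis and WT epididymis overlapped AKO epididymis. AKO epididymis overlapped AHDK and DKO overlapped WT vas deferens, while AHDK lay above DKO.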

How the data were processed

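Total RNA was extracted with a column kit and labelled with biotin, per the labels' protocols. The authors deposited log values, read here as log2 values, for 28856 probe sets on 42 arrays. Log base, summarisation and normalisation were not given in the sources used here, and centring was inferred, as all 28856 probe sets have a median of exactly 0 in each sex, and array medians lie between -0.0538 and 0.0371. Of the probe sets 21789 have 1 gene symbol, 1621 several and 5446 none in the platform annotation, and 21698 matched RefSeq by gene ID. Probe sets of a gene were averaged. limma 3.58.1 (R 4.3.3; lmFit, eBayes) was fitted to the 15 arrays of uterus or vas deferens, the 6 of oviduct or epididymis, or the 21 of a sex for tissue comparisons, and tested on simulated data. Arrays of a group are biological replicates per the labels, and p-values measure the spread between them. A list score is the mean over its genes.

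All HoxC genes were named. Other listed genes were named where called, up to 3 per list and comparison, and the 5 most correlated genes were named for the 2 HoxC genes with the widest group means per tissue. The members and lists were chosen with earlier results of these data known. Same-numbered arrays deviated together (every r above 0.1) in 4 of 42 pairs of groups, the oviduct WT and AKO, uterus and oviduct AKO, and vas deferens and epididymis in WT and in AKO.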

Additional observations from a re-analysis of the deposited data

Results flagged for a closer look

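The AKO change of Hoxc10 differed between the male tissues, at -0.80 for epididymis minus vas deferens by limma's interaction term (adjusted p = 0.0179). Values lay from -0.16 to 0.03 in AKO and from -0.08 to 0.03 in WT epididymis, while in vas deferens all 3 AKO arrays lay above all 3 WT arrays.

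Hoxc9 had AKO arrays on opposite sides of WT in 2 tissues, with all AKO arrays above WT in uterus (0.95) and all AKO arrays below WT in epididymis (-0.11). Of all genes 7.91% lay apart above WT in AKO uterus and 9.02% lay apart below WT in AKO epididymis. Neither difference was called by limma, and the difference between the tissues, which come from different sexes, was not tested.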

How the results depend on the processing

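Each result is a count of HoxC calls by limma. Uterus mutants against WT gave 8 calls, 4 after quantile normalisation, 4 with only the groups compared in the fit and 0 with the small RNA covariate, and 4 to 14 leaving out an array. Uterus mutants against each other gave 2 calls, 1 after quantile normalisation, 0 with only the groups compared and 0 with the replicate block, and 0 to 4 leaving out an array. Vas deferens mutants against WT gave 4, 2 with only the groups compared and 0 with the adipocyte covariate, where Hoxc8 in AKDH turned to -0.43 (adjusted p = 0.748), and 2 to 6 leaving out an array. Against each other they gave 1, and 1 to 2. AKO oviduct against AKO uterus gave 5, 3 after quantile normalisation and 5 leaving out any array. AKO epididymis against AKO vas deferens gave 0, and 1 in the fit of WT and AKO arrays alone. WT oviduct against WT uterus gave 4 (4 to 5 leaving out an array), WT epididymis against WT vas deferens 3 (2 to 3) and the AKO change between tissues 1 (1 to 2). In other settings Hoxc6 in the first of these was called in 6 of 7, and Hoxc8 in the second in 5 of 7. AKO against WT in oviduct and in epididymis gave 0 in every setting run. Where same-numbered arrays deviated together, the replicate block changed no count of calls. In uterus against WT the replicate block gave 6 calls, and in vas deferens 3, and there the arrays share only a number. The cause of these moves was not tested. Signal over background is unknown after centring.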
